A study of Mus musculus with 6 samples.

Results

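The response of mouse dendritic cells (DC) to tumour necrosis factor alpha (TNFa) was read in cells that had received no virus. DC take up antigen in tissues, mature when they meet inflammatory signals and then present the antigen to T cells. Cells of the TNFa group were given 50 ng/ml TNFa for 4 h, and cells of the untreated group were given none. Each group has 1 Affymetrix MOE430A array, so 2 of the 6 arrays of the series are described, over all 22626 probe sets that are not controls. Of these, 20380 carry 1 gene symbol and read 12393 genes.

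Both groups are DC grown in culture from bone marrow of CAR-transgenic mice, female and 13 weeks old per the labels. Which promoter drives the transgene is not stated in the labels. Marrow cells were expanded for 7 days with SCF, hyperIL-6, Flt-3L, long-range IGF-1, dexamethasone and 25 U/ml GM-CSF, and differentiation followed over 7 days in 250 U/ml GM-CSF. The other 4 arrays come from the same kind of cells given the control adenovirus AdOVA or AdIkBa-SR, the adenovirus of the IkBa super-repressor. Each virus was given at 1500 particles per cell, with and without TNFa. Those cells had 2 h of transduction and 18 h of further culture before TNFa. The labels do not say whether cells without virus went through a mock transduction, nor that the groups came from separate cultures. No difference between the TNFa and the untreated array has a replicate check, so none of them carries a p-value or an error. Precision is limited by the number of arrays.

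A signal is the MAS5 value of a probe set on a linear scale. Before taking log2 values, any signal below 53.5 was replaced by 53.5. This floor is the 40th percentile of signals over all arrays, controls left out. Each gene is represented by its brightest probe set and was counted as measured when at least 1 of these 2 arrays was above the floor, which held for 8567 genes. Where the dim array is under the floor, its own signal is given and the fold is a bound, written as "at least". All log2 differences are TNFa over untreated unless another pair of arrays is named.

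The TNFa and untreated arrays were alike in overall signal. The median signal was 76.5 with TNFa and 77.4 without it, and 58.7% and 59.2% of probe sets were above the floor. Both arrays belong to the same recorded fluidics round and were washed with the same protocol. The ratio of 3' to 5' signal was 0.742 with TNFa and 0.821 without it for Gapdh, and 1.49 and 1.58 for beta-actin. The control probe sets for 18S ribosomal RNA read 373 and 176 on the TNFa array, against 229 and 120.3 on the untreated array. Over 12414 probe sets above the floor on both arrays, the log2 difference had an SD of 0.40.

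TNFa binds 2 receptors, Tnfr1 and Tnfr2, encoded by Tnfrsf1a and Tnfrsf1b. The receptors recruit TRAF and cIAP adaptor proteins, and these lead to the IkB kinase complex. The kinase marks IkB proteins for breakdown, and NF-kB dimers then enter the nucleus and bind short DNA elements near their target genes. Those targets include the IkB genes themselves, other cytokines, adhesion molecules and survival genes. In DC, TNFa is a classical maturation signal that raises T cell costimulatory molecules and lowers antigen uptake.

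The promoters that hold such an element are shown first. The search took the letters GGGANNTTCC on both strands of RefSeq promoters (GRCm38.p6, from 250 bases before to 50 bases after each start). Among 47 genes, namely the NF-kB list and the genes named below for their size of difference, their agreement between probe sets or their high signal, 38 had a promoter in the table. The motif stood in the promoters of 2 of them, Nfkb2 and Nfkbia. Both come from the NF-kB list. No gene named for its difference, its agreement between probe sets or its high signal had a match. The Nfkb2 promoter with 2 matches spans chr19:46305445-46305744 on the plus strand and the Nfkbia promoter chr12:55492598-55492897 on the minus strand. Both are printed 5' to 3' on the strand of the gene, because they belong to an NF-kB subunit and to its inhibitor, and capitals mark the motif. Another Nfkb2 promoter held 1 match and is not printed.
Nfkb2: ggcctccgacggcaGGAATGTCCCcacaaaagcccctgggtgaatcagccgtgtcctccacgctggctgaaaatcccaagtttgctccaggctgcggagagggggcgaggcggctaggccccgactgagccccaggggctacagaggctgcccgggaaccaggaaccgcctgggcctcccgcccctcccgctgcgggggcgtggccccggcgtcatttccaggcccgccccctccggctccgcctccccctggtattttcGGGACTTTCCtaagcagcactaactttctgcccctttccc
Nfkbia: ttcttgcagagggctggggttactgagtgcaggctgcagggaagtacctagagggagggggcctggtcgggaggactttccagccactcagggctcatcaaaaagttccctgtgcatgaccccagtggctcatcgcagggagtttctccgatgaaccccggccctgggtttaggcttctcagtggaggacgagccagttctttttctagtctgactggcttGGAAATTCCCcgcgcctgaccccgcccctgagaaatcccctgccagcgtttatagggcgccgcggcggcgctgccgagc
In Nfkb2 the GGAATGTCCC match, on the opposite strand, began 236 bases before the start and the GGGACTTTCC match began 10 bases after it. In Nfkbia the match GGAAATTCCC, on the opposite strand, began 29 bases before the start. A match describes letters in a window and is not a binding site.

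Across all 32851 RefSeq promoters, 482 held the motif, which is 1.47%. Counted by gene, it stood in a promoter of 13 of 361 genes at least 1.5-fold higher with TNFa (3.60%), 9 of 528 genes at least 1.5-fold lower (1.70%) and 125 of all 6972 measured genes with a promoter in the table (1.79%). No test was made of these shares. The 13 genes include the cytokine Il6, with signals of 326 with TNFa and 213 without it, and Nfkb2, with 313 and 201. Among them are also Lats2, a kinase of the Hippo pathway (193 and 106), Slamf8, a receptor of myeloid cells (124 and 74.9), and Gnai3, an inhibitory G protein subunit (2549.5 and 1646). The others were Gpbp1l1, Aebp2, Rtbdn, Acot9, Als2cl, Cog2, Lrrc8c and Tm4sf1.

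With TNFa, the inflammatory cytokine genes Il1a, Il1b and Tnf, the cyclooxygenase gene Ptgs2 and several parts of the TNF receptor pathway had higher signals than without it, by about 1.5-fold to 3.4-fold. Genes of ribosomal proteins and of the mitochondrial respiratory chain had lower signals, most of them by less than 2-fold. At 1.5-fold, 5.26% of measured chemokines were higher with TNFa and 5.26% were lower. The shares were 6.67% and 3.33% for interferon-stimulated genes and 6.25% and 0% for DC maturation genes. All measured genes had shares of 5.14% and 7.58%, so the higher shares of these lists at this threshold were near that of all genes. The DC maturation list still had a median log2 difference of 0.22, with 12 of 16 genes above 0. The median of TNF receptor signalling and feedback was also 0.22. In RNA of a whole culture, fewer cells of a type and less RNA per cell cannot be told apart. Of 14256 probe sets above the floor on at least 1 of the arrays, 112 were at least 2-fold higher with TNFa (0.786%) and 157 were at least 2-fold lower (1.1%). Of 8567 measured genes, 46 were at least 2-fold higher with TNFa (0.537%) and 95 were at least 2-fold lower (1.11%). With a floor of 100 these counts were 19 and 37, and with no floor 712 and 971. At 1.5-fold, 440 genes were higher (5.14%) and 649 were lower (7.58%), and the median log2 difference of all measured genes was -0.01. The gene lists below are read against these shares and this median. The 10 measured reference genes had a median of 0.16, with 7 of them above 0. The medians of the NF-kB, cytokine and TNF lists, 0.17 to 0.22, lie close to that of the reference genes.

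**Figure D1:**
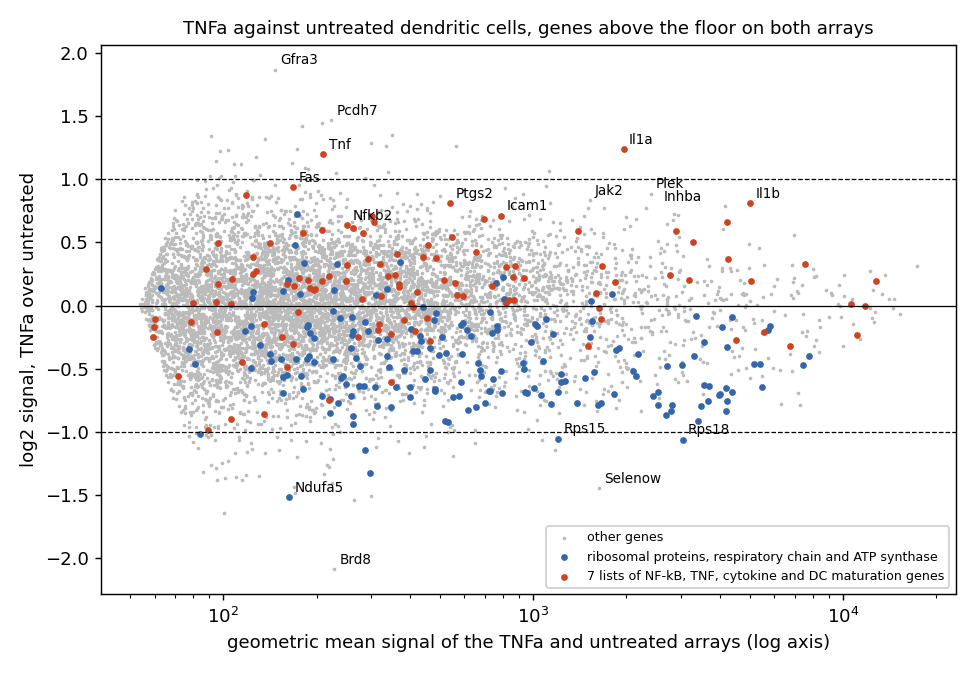
Log2 difference between the TNFa and the untreated array (vertical axis) against the geometric mean signal of both arrays (horizontal, log axis) for 7558 genes above the floor on both arrays, 1 point per gene and no replicates. Dashed lines mark 2-fold, red points are NF-kB, TNF, cytokine, chemokine, prostaglandin and DC maturation genes and blue points are ribosomal protein, respiratory chain and ATP synthase genes, which lie mostly below 0.

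Among the receptors of TNFa, Tnfrsf1b, whose product is found mainly on leukocytes and endothelium, was higher with TNFa on both of its probe sets. The dimmer one read 853 with TNFa and 376 without it, a 2.27-fold difference, and the other read 3549 and 2358, a 1.51-fold difference. Tnfrsf1a, the more widely expressed receptor with a death domain, read 881 and 852. The 2.27-fold probe set was also called by a limma fit of all 6 arrays that estimates 1 common TNFa response for no virus and AdOVA, with 1 residual degree of freedom. In the AdOVA pair the array with TNFa belongs to another fluidics round than the array without it, so TNFa and round cannot be told apart in that pair, which enters the shared response and every limma p given here. The fit called 4 of 14902 probe sets higher (0.0268%) and 0 lower after Benjamini-Hochberg adjustment, and 1635 had an unadjusted p under 0.05. For Tnfrsf1b the fitted log2 response was 1.54 (SE 0.25, limma adjusted p = 0.0488), with signals of 2984 with AdOVA and TNFa and 802 with AdOVA alone beside those given above.

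The other 3 called probe sets read Mark2, Mafg and Slc20a2. Mark2 is a kinase of cell polarity, Mafg a small Maf transcription factor and Slc20a2 a phosphate transporter. The Mark2 probe set read 179 with TNFa and 49.99 without it, at least 3.35-fold, while its other probe sets read 129 against 172 and 41.8 against 115. For Mafg the called probe set read 182 and 47.1, at least 3.41-fold, and the brighter one 384 and 396. For Slc20a2 they read 179 and 52.7, at least 3.34-fold, and 119 and 161. In each of these 3 genes the called probe set was higher with TNFa. Another probe set was lower in Mark2 and Slc20a2, and the brighter one of Mafg differed little (log2 -0.05). A change of the gene as a whole is therefore not shown for any of the 3. All 4 calls have a limma adjusted p of 0.0488, and they were lost, with 0 probe sets called, after quantile normalization, with a floor of 100, with no filter on low values or in an additive fit.

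Downstream of the receptors, 6 of 29 measured genes of TNF receptor signalling and feedback were at least 1.5-fold higher with TNFa and 1 was lower. Their median log2 difference was 0.22, and 23 of the 29 were above 0. Besides Tnfrsf1b, the 6 were Tank, Cflar, Traf1, Tnfaip2 and Birc3. Cflar encodes c-FLIP, which blocks caspase 8 at the death-inducing complex, and read 881 with TNFa and 548 without it. Its 4 probe sets were all higher with TNFa, with log2 differences of 0.40 to 0.93. Traf1, an adaptor that joins cIAP proteins, read 384 and 243, and Birc3, the cIAP2 ubiquitin ligase, 1717 and 1143. Tank, a regulator of TRAF signalling, read 385 and 235. Tnfaip2, a gene known for its induction by TNFa, read 5327 and 3372.

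The kinases of the pathway differed less. Ikbke, a kinase related to the IkB kinases, read 659 with TNFa and 453 without it (log2 0.54), Ikbkb 538 and 387 (0.48) and Ikbkg, the scaffold subunit NEMO, 419.5 and 316 (0.41). Ikbkg had 4 probe sets above the floor, and 1 of them read lower with TNFa, at 226 and 320.2. Tnfaip3, the A20 ubiquitin editor that ends the signal, read 189 and 162 (0.22). Otulin, which removes linear ubiquitin chains, was the lower member at 100.3 and 182 (-0.86).

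Of the 9 measured NF-kB subunits and IkB proteins, 2 were at least 1.5-fold higher and 1 was lower, with a median log2 difference of 0.17. Nfkb2, the p100 precursor of the non-canonical pathway, read 313 with TNFa and 201 without it (0.64), and its dimmer probe set read 76.6 and 86.1 (-0.17). Nfkbie, the inhibitor IkB epsilon, read 257 and 169.6 (0.60), and Rel, the c-Rel subunit, 114 and 81.2 (0.49). Nfkbiz, a nuclear IkB protein, read 360.2 and 286 on its brighter probe set and 177 and 109.9 on the other. Nfkbia, the IkBa gene, differed little, at 10697 and 10622, and its 4 probe sets lay between -0.31 and 0.13. Relb read 102 and 90.7, Rela 584 and 550.1, Bcl3 135 and 189.8, and Nfkbib, the inhibitor IkB beta, 281 and 427 (-0.60).

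The same list had a median of 0.77 in AdOVA-transduced cells, with and without TNFa, and 0.86 in cells with AdIkBa-SR, pairs that share no array with the one described here. Nfkb2 read 470.3 with AdOVA and TNFa and 127 with AdOVA alone, a log2 difference of 1.89. It read 336 and 85.9 in the AdIkBa-SR pair, a difference of 1.97. In all 3 pairs Nfkb2 was therefore higher with TNFa, and the difference was the smallest without virus. The differences between pairs were not tested.

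Among TNF ligands and the other TNF receptors, 3 of 17 measured genes were at least 1.5-fold higher and 1 was lower, with a median of 0.19. Tnf read 318 with TNFa and 139 without it, a 2.29-fold difference. Fas, the death receptor, read 233 and 122 (1.92-fold). Tnfrsf18, the GITR receptor, read 97.1 and 50.96, at least 1.81-fold. Tnfsf14, the ligand LIGHT, was lower at 63.6 and 126, while its other probe set read 65.1 and 71.1. The remaining 11 of 28 genes of this list on the array were under the floor on both arrays. In the AdOVA pair Tnf read 583 with TNFa and 598 without it, so the difference of the cells without virus was not seen there.

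Of 15 measured cytokines, 4 were at least 1.5-fold higher with TNFa and 1 was lower, with a median of 0.17. Il1a, the interleukin 1 alpha released by damaged and activated cells, read 3007 with TNFa and 1275 without it (2.36-fold). Il1b, its secreted relative, read 6636 and 3788 (1.75-fold). Within this list, which does not hold Tnf, these were the largest differences above the floor on both arrays. Il6, the acute-phase cytokine, read 326 and 213 (1.53-fold), and Csf3, the granulocyte growth factor, 91.3 and 51.1, at least 1.71-fold. The 3 probe sets of Il1rn, the interleukin 1 receptor antagonist, were all higher with TNFa, by 0.33, 0.66 and 0.70.

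The other interleukins differed in both directions. Il12a, the p35 chain, read 554 with TNFa and 426 without it (0.38). Il12b, the p40 chain, read 151 and 186 on its brighter probe set and 119.5 and 62.2 on the other, so its probe sets differed in direction. Il15 read 98.2 and 134 (-0.45) and Il18 169 and 284 (-0.75). Il23a, Il10 and Ifng were under the floor on both arrays. Il1a, Tnf, Il1b and Il6 did not pass in the shared limma fit, with adjusted p-values of 0.354, 0.515, 0.792 and 0.812. In the AdOVA pair, Il1b read 12233 with TNFa and 13872 without it, and Il6 2749 and 3114.

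**Figure D2:**
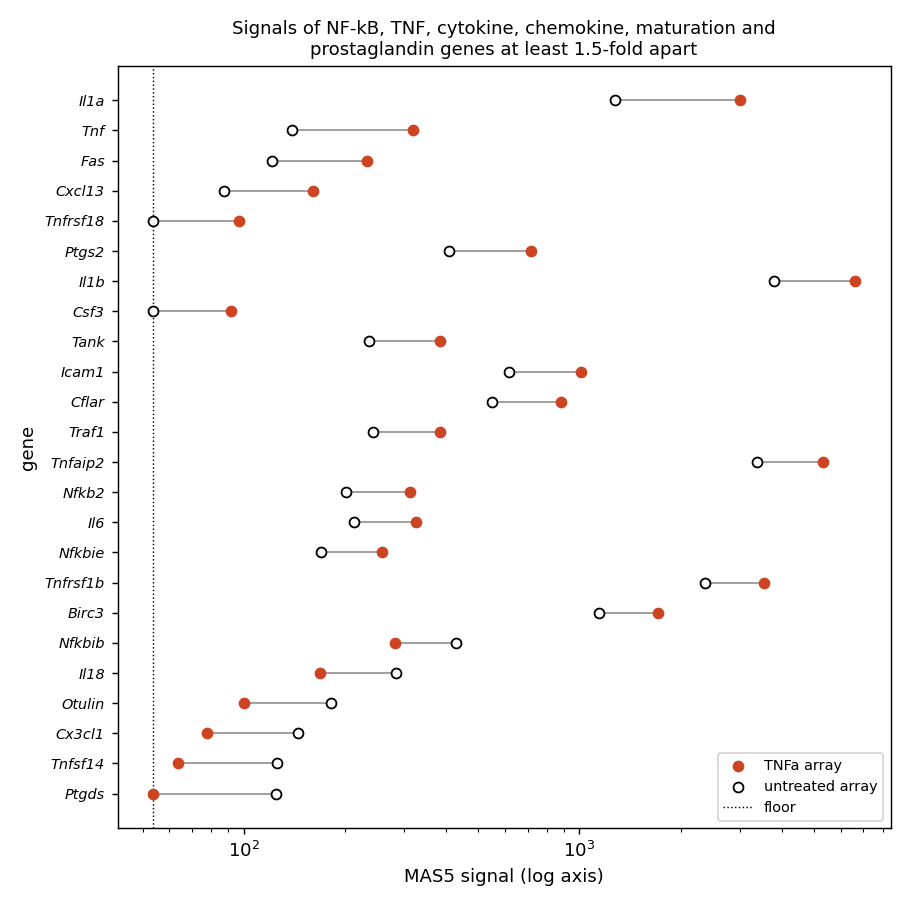
MAS5 signal (log axis) of the 24 genes at least 1.5-fold apart among the NF-kB, TNF, cytokine, chemokine, DC maturation and prostaglandin lists, with the TNFa array as filled and the untreated array as open circles, 1 array each. Signals under the floor (dotted line) are drawn at the floor, and 18 genes, from Il1a down to Birc3, were higher with TNFa while 6 were lower.

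Chemokines were close to even. Of 19 measured genes, 1 was at least 1.5-fold higher and 1 was lower, with a median of 0.05. Cxcl13, an attractant of B cells, read 161 with TNFa and 87.5 without it (1.84-fold). The neutrophil attractants Cxcl1 and Cxcl2 read 286 and 276, and 3414 and 2965. Ccl3 and Ccl4, attractants of monocytes and T cells, read 3003 and 2536, and 594 and 525. Cxcl10, which attracts activated T cells, read 330.3 and 314. Ccl5 read 10226 and 12034, Ccl2 5162 and 5977, and the DC chemokines Ccl17 and Ccl22 1352 and 1683, and 1651 and 1542. Cx3cl1, a membrane-bound chemokine, was the lower member at 77.4 and 145 (-0.90).

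The prostaglandin genes had 1 of 16 measured members at least 1.5-fold higher and 1 lower, with a median of 0.02. Ptgs2, the inducible cyclooxygenase COX-2, read 716 with TNFa and 408 without it, and 803 and 239 on its second probe set. The second probe set was 1.75 apart on the log2 scale, and neither passed in the limma fit (adjusted p = 0.226 and 0.116). Ptges, which makes prostaglandin E2, read 552 and 479 on the brighter probe set and 255 and 116 on the other. Ptgds, the lipocalin-type prostaglandin D synthase, was under the floor with TNFa at 14.3 and read 125 without it, at least 2.33-fold lower. Pla2g4a, which frees arachidonic acid, read 505 and 388.

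Among genes of DC maturation, 1 of 16 measured members was at least 1.5-fold higher and 0 were lower, with a median of 0.22 and 12 of 16 above 0. Icam1, the ligand of LFA-1 on T cells, read 1009.7 with TNFa and 617 without it (1.64-fold). It also differed in the same direction in the other pairs, at 1669 with AdOVA and TNFa against 815 with AdOVA alone, and at 673 against 352 with AdIkBa-SR. The limma adjusted p for Icam1 was 0.17. The costimulatory gene Cd80 read 221 and 148, and 193 and 150 on its other probe set above the floor. Cd86 read 758 and 564 on its brighter probe set and 551 and 338 on the other, a 1.63-fold difference. Cd40 read 96.96 and 79.3 on one probe set and 65.3 and 101 on the other, and Cd83 388 and 350.1. Ccr7, the receptor that leads mature DC to lymph nodes, read 177 and 195, and Fscn1, the actin bundler of mature DC, 824 and 623.

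Uptake receptors of immature DC had 0 of 29 measured members at least 1.5-fold higher and 1 lower, with a median of -0.09. Mgl2, a C-type lectin, read 102 with TNFa and 202 without it. Clec4e and Clec7a, receptors for mycobacterial and fungal glycolipids and glucans, read 8414 and 5712, and 5894 and 4195. The adaptors Fcer1g and Tyrobp, which carry signals of many myeloid receptors, read 5013 and 7052, and 3850 and 5476.

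In MHC class II presentation, 0 of 15 measured genes were at least 1.5-fold higher and 3 were lower, with a median of -0.26. H2-Eb1, a class II beta chain, read 377 with TNFa and 602 without it, Ifi30, a lysosomal thiol reductase, 329 and 508, and Rfxap, a class II promoter factor, 57.3 and 88.0. Ciita, the master regulator of class II genes, read 76.0 and 57.2. MHC class I processing had 0 of 15 in either direction, with a median of -0.11.

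Pattern recognition genes included 2 of 19 at least 1.5-fold higher and 0 lower, with a median of 0.19. Tlr1 read 160.4 with TNFa and 95.2 without it, and its partner Tlr2, which together recognise bacterial lipoproteins, read 3374 and 2154. Tlr4, the receptor for lipopolysaccharide, read 1205 and 829 (0.54), and Ly96, its MD-2 partner, 235 and 320.4 (-0.45). The inflammasome gene Nlrp3 read 357 and 272 and the adaptor Pycard 2049 and 3003. These 2 signals differed in opposite directions, each by less than 1.5-fold.

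Interferon-stimulated genes had 2 of 30 measured members at least 1.5-fold higher and 1 lower, with a median of 0.01. Ifih1, the RNA sensor MDA5, read 1124 with TNFa and 589 without it. Gbp3, a guanylate-binding protein, read 281 and 153, and Bst2, the tetherin gene, 1611 and 2519. The antiviral genes Ifit1, Ifit2 and Rsad2 read 691 and 903, 453 and 624, and 2834 and 2889. Jak2, a kinase of cytokine receptors, was the 1 of 23 IRF, STAT, JAK and SOCS genes that passed 1.5-fold, at 2032 and 1140.

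Adhesion receptors had 3 of 14 measured integrin and selectin genes at least 1.5-fold higher and 0 lower, with a median of 0.19. Itgav, the alpha V integrin, read 1533 with TNFa and 977 without it, and both of its probe sets above the floor passed 1.5-fold. Pecam1 read 105 and 65.4, and Itga6 223 and 147. Among immediate-early genes, 2 of 34 were at least 1.5-fold higher and 2 lower, with a median of -0.05. Egr2, a zinc-finger factor, read 334 and 161 (2.07-fold), whereas Fos read 592 and 739.7 and Jun 278 and 294. Egr2 read 73.2 with AdOVA and TNFa and 98.8 with AdOVA alone, a difference in the other direction.

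Survival and Bcl-2 family genes had 2 of 23 measured members at least 1.5-fold higher and 3 lower, with a median of -0.25. Apaf1, the core of the apoptosome, read 574 with TNFa and 329 without it, and Bcl2 102 and 65.2. Bak1, which opens the mitochondrial membrane, read 156 and 288, Cycs, cytochrome c, 1343 and 2122, and Bbc3, the PUMA gene, 81.7 and 127. Oxidative stress genes had 2 of 26 higher and 4 lower, with a median of -0.24. Cat, the catalase gene, read 1625 and 778 (2.09-fold), and Txnrd1, thioredoxin reductase, 1864 and 1139.7. Mt1, a metallothionein, read 5551 and 9576, and Gstm7, a glutathione transferase, was under the floor with TNFa at 42.1 and read 128 without it.

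**Figure D3:**
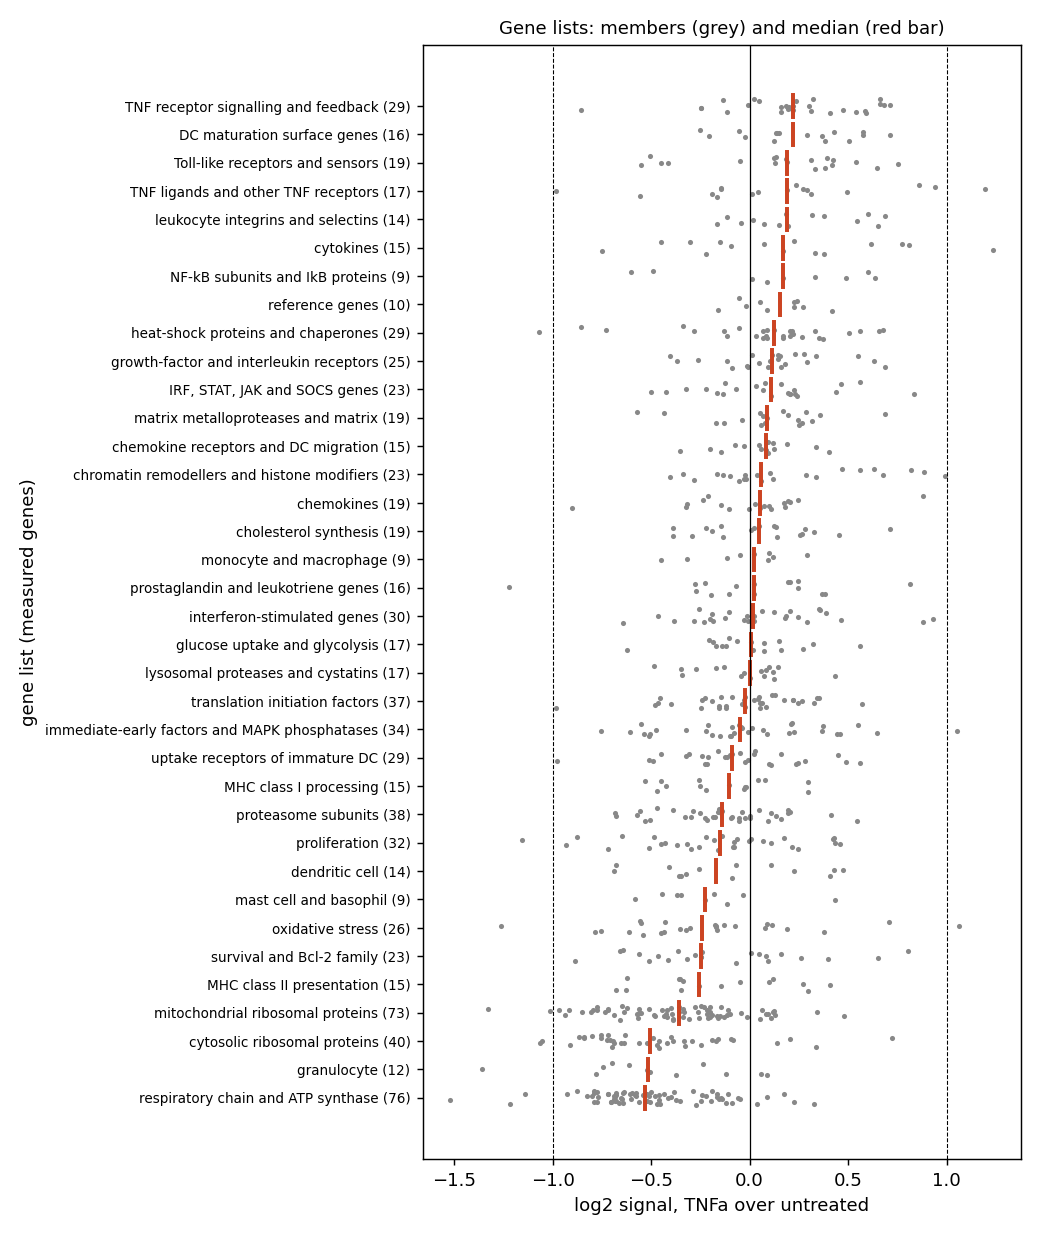
Log2 difference between the TNFa and the untreated array (horizontal axis) for the measured members of 36 gene lists with at least 9 of them, 1 grey point per gene and a red bar at each list's median, with the number of genes in parentheses. The medians run from 0.22 for TNF receptor signalling to -0.53 for the respiratory chain and ATP synthase, and dashed lines mark 2-fold.

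Ribosomal proteins make up the machine of protein synthesis, and the respiratory chain makes ATP, and genes of both had lower signals with TNFa. Of 76 measured genes of the respiratory chain and ATP synthase, 0 were at least 1.5-fold higher with TNFa and 33 were lower, which is 43.4% against 7.58% of all measured genes. Their median log2 difference was -0.53, and 71 of 76 were below 0. Of 40 cytosolic ribosomal protein genes, 1 was higher and 18 were lower (45%), with a median of -0.50. Of 73 mitochondrial ribosomal protein genes, 0 were higher and 18 were lower (24.7%), with a median of -0.36.

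Ndufa5, a subunit of complex I, read 96.1 with TNFa and 276 without it (2.87-fold lower), and 115 and 247 on its other probe set. Uqcr11, of complex III, read 193 and 425, Cox5a, of complex IV, 2132 and 3687, and Atp5md, of ATP synthase, 384 and 729. Some of the largest subunits differed less: Atp5b read 1861 and 1749, Atp5a1 1557 and 1515, Uqcrc1 715 and 741, and Sdha 864 and 738. Among ribosomal proteins, Rps18 read 2102 and 4393 (2.09-fold lower), Rps15 834 and 1732 (2.08-fold lower) and Rpl13a 2475 and 4657. Rps19 read 1985 and 3619.96, Rps10 3144 and 5622, and Rpl27 2082 and 3723. The probe sets of these ribosomal genes that were above the floor were all lower with TNFa, 1 to 5 per gene.

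Proteasome subunits, another set of genes used by every cell, had 0 of 38 at least 1.5-fold higher and 2 lower, with a median of -0.14. Translation initiation factors had 0 of 37 higher and 1 lower, with a median of -0.02. The 10 measured reference genes had 0 in either direction and a median of 0.16. In the AdOVA pair the respiratory chain list had a median of -0.77 and the cytosolic ribosomal list -0.95, and in the AdIkBa-SR pair the medians were -0.03 and 0.02. The 18S control signals moved with the AdOVA pair too, at 1061 and 2601 with AdOVA and TNFa against 289 and 234 with AdOVA alone. In the AdIkBa-SR pair they were 409.98 and 537 with TNFa against 414 and 340.4 without it. The part of the 18S signal in these differences was not tested.

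The differences also varied with the length of the gene. The 7550 genes above the floor on both arrays with a RefSeq position, 99.9% of such genes, were put into 5 equal classes by genomic span. The median log2 difference was -0.20 in the shortest class, at a median span of 4.34 kb, and then -0.05, 0.03, 0.10 and 0.12, the last at 99.7 kb. In the shortest class 33 of 1510 genes were at least 1.5-fold higher and 239 were lower, and in the longest class 125 were higher and 57 lower. Without ribosomal, mitochondrial ribosomal and respiratory chain genes, the 1394 genes left in the shortest class had a median of -0.19. The gradient ran the same way in the AdOVA pair, from -0.14 to 0.11, and the other way in the AdIkBa-SR pair, from 0.05 to -0.09. This is a description over genes, which are not independent of each other, and no test was made of it. Within the respiratory chain list the median was -0.58 for genes of the shortest class and -0.46 for the others. Within the cytosolic ribosomal list, where 38 of 40 genes were in the shortest class, these medians were -0.50 and -0.51.

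**Figure D4:**
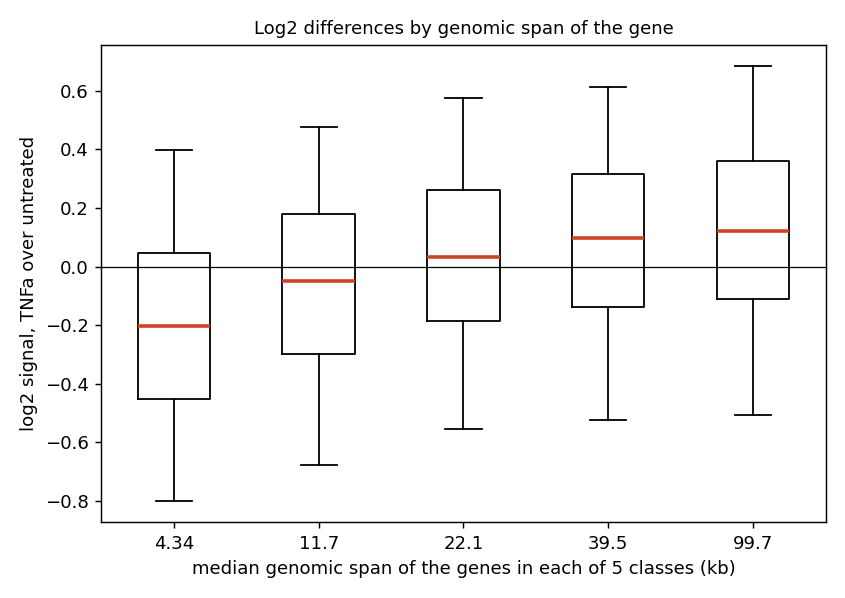
Log2 difference between the TNFa and the untreated array (vertical axis) by class of genomic span, with 1510 genes in each of 5 classes and the median span in kb on the horizontal axis. Red lines are medians, boxes span the quartiles and whiskers the 5th to the 95th percentile of genes, and the medians go up from -0.20 to 0.12 from the shortest to the longest genes.

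Other lists differed within the shortest class. Of 12 cytokine genes above the floor on both arrays, the 3 in the shortest class had a median of 0.62, and the other 9 one of 0.17. The granulocyte markers in that class had a median of -0.61. Of 12 measured granulocyte markers, 0 were at least 1.5-fold higher with TNFa and 5 were lower, with a median of -0.51. Of 9 measured mast cell and basophil markers, 0 were 1.5-fold apart, with a median of -0.23 and 8 of 9 below 0. S100a8 and S100a9, the calprotectin subunits of neutrophils and monocytes, read 4824 with TNFa and 8278 without it, and 5714 and 8197. Ngp, a granule protein, read 1324 and 2149, Lcn2 5265 and 7484, and the collagenase Mmp8 9499 and 8940.3. Elane, neutrophil elastase, was under the floor with TNFa at 32.3 and read 137 without it. The summed signal of the 12 markers was 27623 with TNFa and 36339 without it, and the part of granulocytes in the other differences was not tested.

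Markers of the cells themselves differed less. Of 14 measured DC markers, 0 were at least 1.5-fold higher and 2 were lower, with a median of -0.17 and a summed signal of 9442 with TNFa and 11026 without it. Itgax, the CD11c integrin, read 755 and 699, H2-Aa 982 and 1173, Cd74 1993 and 2558, and Irf8 387 and 406. Flt3, a marker of DC progenitors, was under the floor on both arrays. Of 9 measured monocyte and macrophage markers, 0 differed by 1.5-fold, with a median of 0.02. Csf1r read 8848 and 7242, Lyz2 12447 and 12891, and Adgre1 5042 and 4725. Of the markers on the array, 14 of 15 for DC and 9 of 11 for monocytes and macrophages were thus above the floor on at least 1 array. C1qa and C1qc of the macrophage list were under it on both. The DC markers Zbtb46, Cd209a and Ciita lay near it, at 55.9, 61.2 and 76.0 with TNFa and 90.0, 76.6 and 57.2 without it. Of 11 T cell markers on the array, 7 were under the floor on both arrays, among them Cd3d, Cd3e and Cd3g, and 4 were measured. Zap70 read 254 with TNFa and 168 without it, and Cd28 119 and 176. Of 11 B cell markers, 5 were under the floor on both arrays, among them Pax5 and Cd79b, and 6 were measured. Blnk read 551 and 414.

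The genes with the largest differences were mostly outside these lists. Gfra3, the receptor of artemin, a growth factor of the GDNF family, read 279.9 with TNFa and 76.6 without it, a 3.65-fold difference on its only probe set. Pcdh7, a protocadherin, read 371 and 134 (2.77-fold), and Gsap, linked to gamma-secretase, 294 and 109.5 (2.69-fold). Zfp651, a zinc-finger protein, read 145 and 57.3 (2.53-fold). Pcdh7 was higher with TNFa in the AdOVA pair as well, at 317 against 132, and had a limma adjusted p of 0.156.

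Several others had probe sets that differed in size, and some of these differed in direction. Pvr, the poliovirus receptor homologue, read 343 with TNFa and 126 without it, but its 5 probe sets above the floor ran from -0.20 to 1.44. Fen1, a nuclease of DNA replication, read 561 and 220.2 on one probe set and 90.9 and 107 on the other. Bace1, the beta-secretase, read 216 and 86.5, with 3 probe sets from -0.39 to 1.32. Far1, a fatty acyl reductase, read 469 and 192, Ap3m1, an adaptor subunit of endosomal sorting, 871 and 363, and Bpnt2, a Golgi nucleotide phosphatase, 521 and 217. The probe sets of Ap3m1 were all higher with TNFa, by 0.22 to 1.26, and those of Bpnt2 by 0.11, 1.19 and 1.26. Those of Far1 ran from -0.30 to 1.29.

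Among genes from under the floor, Nrtn, the growth factor neurturin, read 136 with TNFa and 49.6 without it, at least 2.54-fold. Cplx2, a protein of vesicle release, read 135 and 29.1, at least 2.53-fold. Mmp7, the protease matrilysin, read 127 and 22.0, at least 2.38-fold, and was also higher in both transduced pairs, at 91.0 against 26.0 with AdOVA and 119 against 22.5 with AdIkBa-SR. Galnt10, a glycosyltransferase, read 123 and 37.5, and Speer4f1 123 and 24.0.

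On the lower side, Brd8, a bromodomain protein of the NuA4 complex, read 111 with TNFa and 471 without it, 4.25-fold lower on its brightest probe set. Its 4 probe sets ran from -2.09 to 0.45. Gas6, the ligand of the Axl and Mertk receptors, read 56.9 and 178 (3.13-fold lower) and Ap1b1, a clathrin adaptor subunit, 154 and 449 (2.91-fold lower), each on 1 probe set. Selenow, a selenoprotein, read 987 and 2692 (2.73-fold lower) and 510.2 and 954 on its other probe set. Rer1, a retention receptor of the endoplasmic reticulum, read 178 and 505, Micos13, of the mitochondrial cristae complex, 103 and 278, Snrpd3, a core spliceosomal protein, 138 and 365, and Tpcn1, an endolysosomal channel, 59.3 and 154. The 3 probe sets of Snrpd3 ran from -1.41 to 0.10, so they differed in direction. The gene 2310039H08Rik read 102 and 286.

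Under the floor with TNFa were Arhgap23, at 34.2 against 199 untreated, at least 3.71-fold lower, and Sncb, beta-synuclein, at 37.8 against 187, at least 3.49-fold lower. Serpinf2, the plasmin inhibitor, read 43.1 and 172, at least 3.21-fold lower, and Nme6, a nucleoside diphosphate kinase, 36.8 and 130.4, at least 2.44-fold lower.

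Differences that every probe set of a gene shared were rarer. Of 2538 genes with at least 2 probe sets above the floor on both arrays, 1411 had all of them in 1 direction. In 23 genes all were at least 1.5-fold higher with TNFa and in 45 all were at least 1.5-fold lower. At 2-fold the counts were 0 higher and 4 lower. The 4 were Vps53, a subunit of a Golgi tethering complex, Ndufa5, Rps15 and Cisd1, an iron-sulfur protein of the outer mitochondrial membrane. Vps53 read 140.0 with TNFa and 336 without it, and 104 and 232. Cisd1 read 300.3 and 653, and 81.4 and 167, and Snrpg, a spliceosomal protein, 394 and 759.9, and 117 and 276.

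On the higher side, Pik3c2a, a phosphoinositide kinase, read 433 with TNFa and 236 without it, and 152 and 69.7. Jak2 read 1704 and 830.3 on its second probe set, Polr3e, a subunit of RNA polymerase III, 151 and 76.7, and Smc4, a condensin subunit, 421 and 249. The 3 probe sets of the cholesterol exporter Abca1 were 0.61 to 1.19 higher on the log2 scale, with signals of 5074 and 3332 on the brightest. Ptgs2 had the largest difference among the 23 when its probe sets were averaged, 1.28.

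**Figure D5:**
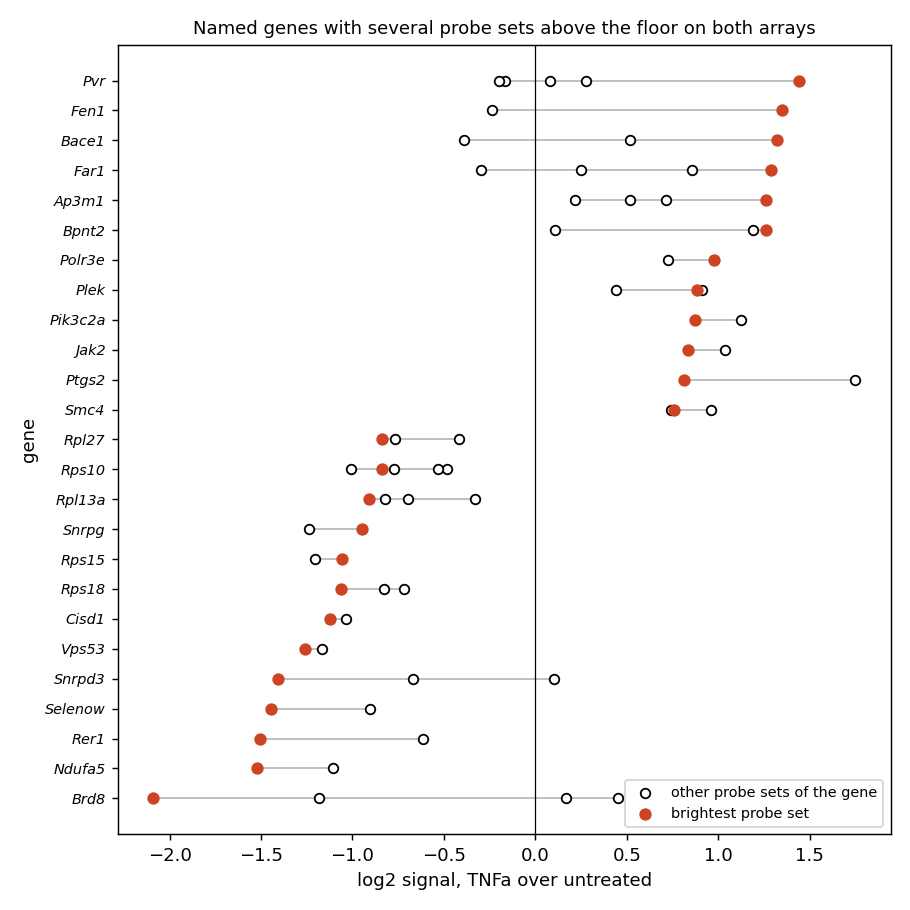
Log2 difference between the TNFa and the untreated array (horizontal axis) for each probe set above the floor on both arrays, for named genes with at least 2 of them, with the brightest probe set filled and the others open. The probe sets of Pvr, Fen1, Bace1, Far1, Brd8 and Snrpd3 fall on both sides of 0. All probe sets of Ptgs2, Jak2, Plek, Pik3c2a, Vps53 and the ribosomal protein genes shown fall on 1 side.

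For the 31 genes at least 2-fold higher and above the floor on both arrays, 14 had other probe sets above the floor. Of these 24 other probe sets, 17 were higher with TNFa, 7 were lower and 4 passed 1.5-fold, with a median log2 difference of 0.13. For the 64 lower genes, 21 had 32 other probe sets, of which 25 were lower, 7 were higher and 15 passed 1.5-fold, with a median of -0.50. Among 684 genes with a signal of at least 1000 on both arrays, Il1a was the only one at least 2-fold higher and Rps18 the only one at least 2-fold lower. At 1.5-fold, 24 of these genes were higher and 50 were lower. The 5 with the largest log2 differences among the higher ones included Plek, a protein kinase C substrate of leukocytes (3255 with TNFa and 1762 without it), and Inhba, the activin A subunit (5464 and 3167).

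In the AdOVA pair, 1232 of 9204 measured genes were at least 1.5-fold higher with TNFa (13.4%) and 1109 were lower (12%). In the AdIkBa-SR pair the counts were 769 (9.12%) and 564 (6.69%) of 8428. Of the 31 genes at least 2-fold higher without virus, 17 were higher with TNFa in the AdOVA pair and 9 of them by at least 1.5-fold, while 2 were at least 1.5-fold lower. In the AdIkBa-SR pair, 10 of 30 measured were higher, 4 by at least 1.5-fold, and 4 were at least 1.5-fold lower. Of the 64 lower genes, 37 of 60 measured were lower in the AdOVA pair, 21 by at least 1.5-fold, and 9 were at least 1.5-fold higher. In the AdIkBa-SR pair 23 of 64 were lower, 4 by at least 1.5-fold, and 12 were at least 1.5-fold higher. The AdOVA+TNFa array and both AdIkBa-SR arrays belong to another fluidics round than the TNFa, untreated and AdOVA arrays, so TNFa and round cannot be told apart in the AdOVA pair. Both AdIkBa-SR arrays share a round, but the one without TNFa was washed with another protocol than the other 5 arrays, so TNFa and wash protocol cannot be told apart in that pair.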

How the data were processed

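Total RNA (8 ug per sample) was measured on MOE430A arrays, and groups were taken from the sample titles. The deposited values are linear microarray intensity, 1 signal per probe set, made by the authors with MAS5, as the submitters' processing notes name it, without a version. The 2% trimmed mean was 200.1 on every array, so signals were not rescaled. Of 22690 probe sets, 64 controls were left out. The platform annotation gives 691 probe sets several symbols and 1555 none, and no gene was named from them. Genes with near-identical copies, such as those of ribosomal proteins, may share probes.

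Signals under 53.5 were set to 53.5. Genes were named by size of difference, 10 per direction above the floor on both arrays, 5 with the dim array under it, 5 for agreement of probe sets and 5 with a signal of at least 1000, with limma calls and members of 44 lists. The members, lists and rule were chosen with earlier results of these data known. limma 3.58.1 (R 4.3.3; lmFit, eBayes with trend) was fitted to 14902 probe sets above the floor on at least 2 arrays, with 3 virus states, a TNFa response shared without virus and with AdOVA, and one in AdIkBa-SR cells. Its spread measures how far the shared responses differ, and the same variation is assumed for AdIkBa-SR arrays. The AdOVA pair spans both fluidics rounds, so the shared response includes any difference between rounds. The fit was also run on simulated data, with the same spread for every probe set and no difference between rounds. The simulated TNFa response was the same without virus and with AdOVA. That run cannot show how the fit behaves where these settings do not hold, so it does not bear on the calls. Tables and figures were made with Python 3.11.15, pandas 2.3.3, numpy 2.4.6 and matplotlib 3.10.9. Alternatives were another floor, no floor, equal medians, quantile normalization, the mean over probe sets and other limma settings.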

Additional observations from a re-analysis of the deposited data

Results flagged for a closer look

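The TNFa differences of 2 genes were at least 2-fold in opposite directions in cells without virus and in AdOVA-transduced cells, pairs that share no array. Gfra3 read 279.9 with TNFa and 76.6 untreated, a log2 difference of 1.87, but 162 with AdOVA and TNFa and 331 with AdOVA alone, a difference of -1.03. Nrtn read 136 with TNFa and 49.6 untreated, at least 2.54-fold higher, but 34.3 with AdOVA and TNFa and 125 with AdOVA alone, a difference of -1.22 with the TNFa array of that pair under the floor. With 1 array per group these differences between pairs were not tested, and each gene is read by 1 probe set.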

How the results depend on the processing

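The counts depend on the treatment of low signals and on the threshold. Genes at least 2-fold higher with TNFa, 46 as reported, numbered 19 with a floor of 100, 712 with no floor, 26 with the mean over all probe sets of a gene and 440 at 1.5-fold, and genes at least 2-fold lower, 95 as reported, numbered 37, 971, 61 and 649. Probe sets at least 2-fold higher, 112 as reported, numbered 47 with a floor of 100, 1627 with no floor and 940 at 1.5-fold, and those at least 2-fold lower, 157 as reported, numbered 66, 1938 and 1093. Lower counts exceeded higher counts under each of these settings. Equal medians, quantile normalization and a filter on both arrays kept each count within 1.5 times. The 4 limma calls became 0 with an additive fit of 6 arrays, quantile normalization, a floor of 100 or no filter on low values, where 1425, 1389, 1126 and 1051 probe sets had an unadjusted p under 0.05, and the cause was not tested. Of 52 named genes, 3 changed sign with the mean over probe sets and 0 under the other settings. Sizes depended more on the processing. The log2 difference moved by at least the SD of 0.40 in 20 of the 52 with the mean over probe sets. It did so in 13 with a floor of 100, in 8 with no floor and in 0 with equal medians or quantile normalization. Of the medians of 44 lists, 1 changed sign with quantile normalization, 1 with a floor of 100, 4 with no floor and 1 with the mean over probe sets. No replicate could be left out, and no value here has a replicate error. No paired analysis was possible because each group has 1 array and the comparison of TNFa with untreated comes from no test.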

Other observations

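Chromatin remodellers and histone modifiers had 5 of 23 measured members at least 1.5-fold higher with TNFa and 0 lower, with a median log2 difference of 0.06. Chd4, the ATPase of the NuRD complex, read 116 with TNFa and 58.4 without it, and Chd1, a remodeller of transcribed genes, 252 and 163. The others were Kdm5a, Smarcd1 and Kat2b. Proliferation genes had 0 of 32 higher and 5 lower, with a median of -0.15. Asf1b, a histone chaperone, read 80.0 with TNFa and 179 untreated, Ccna2, cyclin A2, 111 and 204, and Cdkn1a, the cell cycle inhibitor p21, 969.7 and 1518, while Mki67 read 245 and 183 and Pcna 1429 and 1229. Chaperones had 2 of 29 higher and 3 lower, with a median of 0.12. The mitochondrial chaperonin partners Hspe1 and Hspd1, which share a promoter, read 253 and 531, and 1080 and 761, in opposite directions. Cholesterol synthesis had 1 of 19 higher, the synthase Hmgcs1 at 876 and 535, and 0 lower.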
